A study of Gallus gallus with 9 samples.

Results

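Cells carrying heart muscle and heart field markers were picked out of single-cell libraries of the early chick embryo, and they are described here as cardiac progenitor cells. A cell entered when at least 500 genes were detected in it, when at least 3 of the 6 genes TNNT2, MYL2, NKX2-5, ACTC1, GATA5 and RBM24 had a UMI, and when SOX21, DLX5, SOX17 and TTR had none. A UMI (unique molecular identifier) marks 1 captured RNA molecule. By this rule 2650 of the 84048 cell barcodes with at least 500 genes were cardiac progenitor cells, out of 107749 barcodes in all. The rule used measured values, so the levels of its 10 genes are given as a description without a test.

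The study followed how ectoderm cells keep pluripotency genes until neural crest forms, and its single-cell libraries hold every germ layer. Gallus gallus embryos of genotype WT, with no treatment (N/A in the labels), gave all tissue at the midbrain axial level. Sampling began at HH5, a late gastrula by the Hamburger-Hamilton staging of chick embryos, went on through 1ss, 4ss and 7ss, named for their 1, 4 or 7 pairs of somites, and ended at HH11. HH11 had 1 library and the other stages 2 each, and each library of the first 4 stages was made from several pooled embryos by droplet sequencing (10x Genomics). The libraries are not single animals, so the p-values below measure only the spread between these libraries.

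The vertebrate heart forms from paired fields of mesoderm that lie beside the head fold and meet at the ventral midline, where the first heart field builds a beating tube and the second heart field adds cells to both its ends. Transcription factors of the NKX2, GATA, TBX, HAND, MEF2 and ISL families act together in this mesoderm, under BMP signals that promote the cardiac fate and Wnt signals that act for or against it by time and place. Genes of the sarcomere, the contractile unit of striated muscle, are switched on as the tube forms, and smooth muscle actin is among the earliest of them in the chick.

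HH5 replicates 1 and 2 had 159 and 16 cardiac progenitor cells, the 1ss replicates 170 and 247, the 4ss replicates 634 and 894, the 7ss replicates 312 and 187, and the HH11 library 31. As a share of cells, HH5 had 1.45% (95% exact binomial interval 1.23 to 1.69%) and 0.352% (0.201 to 0.570%) and 1ss had 3.22% (2.76 to 3.74%) and 4.73% (4.17 to 5.35%). The 4ss libraries had 7.43% (6.88 to 8.01%) and 5.66% (5.30 to 6.03%), the 7ss libraries 2.51% (2.25 to 2.81%) and 1.47% (1.27 to 1.70%), and HH11 had 0.362% (0.246 to 0.513%). Both 4ss libraries lay above all others, and the part of the dissection in these shares was not tested. The intervals cover counting error only, and the shares were not tested because the rule sets them. With 31 cells HH11 fell below the 50 set as the least for describing a stage, so its values are given beside the other stages and it is not described as a stage. It is 1 of the 8 libraries in the comparisons with other cells and with head mesoderm cells. Its cardiac progenitor cells held 192040 UMIs in all. Some highest levels given below, those of TBX20, MYOM1, CACNA1C and ALDH1A2 among them, are from HH11 and rest on few UMIs. The tests between stages leave it out.

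**Figure D1:**
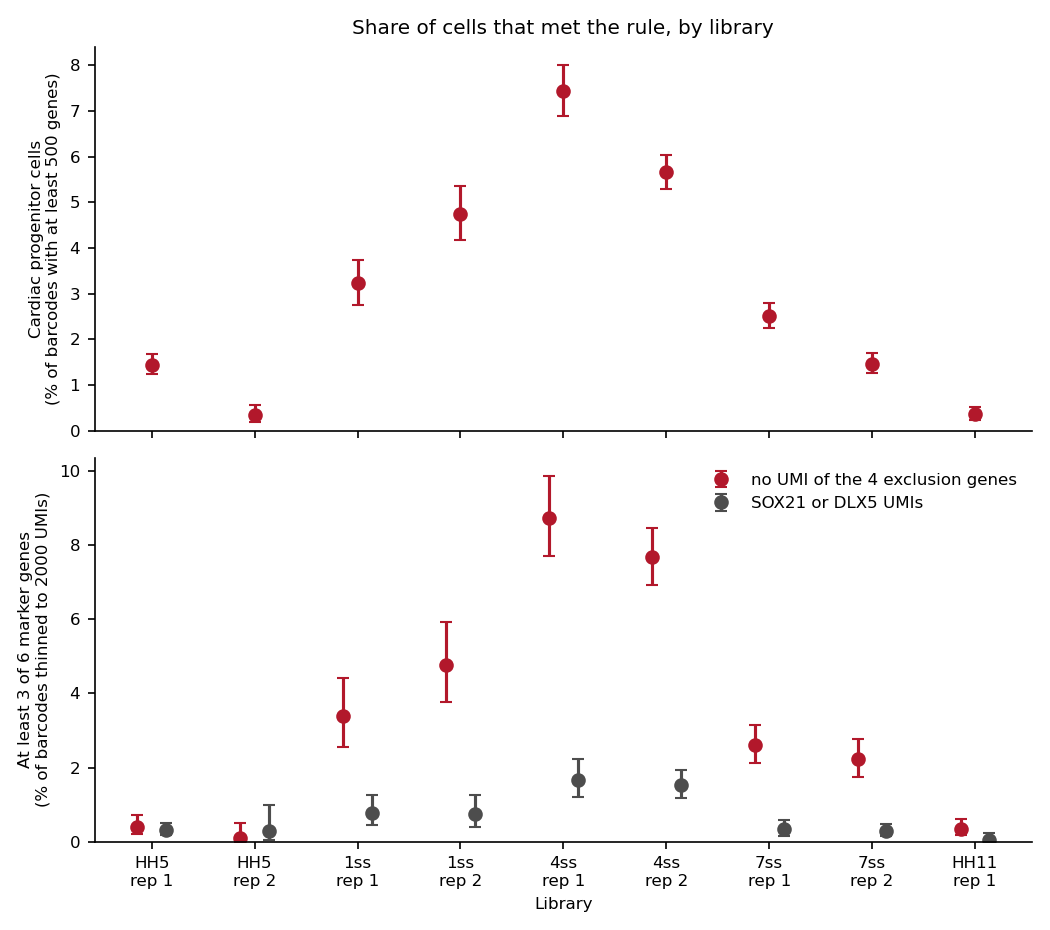
Upper panel, cardiac progenitor cells as % of barcodes with at least 500 genes in each of the 9 libraries. Lower panel, % of barcodes with a UMI of at least 3 of the 6 marker genes after thinning to 2000 UMIs. It shows barcodes without the 4 exclusion genes (red) and barcodes with SOX21 or DLX5 (grey), and leaves out those with fewer than 2000 UMIs. Points are libraries and bars are 95% exact binomial intervals. The 4ss libraries are highest in both panels, and at HH5 the 2 kinds of barcode overlap.

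The same 3-of-6 count was made in cells with UMIs of SOX21 or DLX5, which mark neural and placodal ectoderm, as a measure of marker UMIs that come from free RNA or from doublets. Barcodes were thinned to 2000 UMIs for this, because cells with SOX21 or DLX5 were deeper, and barcodes with fewer UMIs were left out. At 4ss this kept 2702 of 5106 and 4851 of 10118 cells without exclusion genes. It kept 2703 of 3255 and 4478 of 5315 cells with SOX21 or DLX5. Of the kept 4ss cells without exclusion genes 8.73% and 7.67% still had at least 3 markers, against 1.66% and 1.52% of those with SOX21 or DLX5. At 1ss these shares were 3.39% and 4.76%, against 0.778% and 0.737%, and at 7ss 2.60% and 2.22%, against 0.333% and 0.287%. At HH5 they were 0.399% and 0.0896%, against 0.303% and 0.276%, so the HH5 cells chosen by the rule were not above this background. Cells with SOX17 or TTR, of endoderm, were fewer and varied more. After thinning 2.76% and 7.27% of them met the 3-of-6 count in the 4ss libraries, the second about as often as cells without exclusion genes. At 7ss 3.74% and 0.893% did, the first above cells without exclusion genes. At 1ss 0% and 1% did, and at HH5 0.385% and 0.704%, the last again above them. Some shares rest on few cells, with 4 and 1 at 7ss and 1 in HH5 replicate 2. Before thinning 15.9% and 20.8% met the count at 4ss, and 14.3% and 5.51% at 7ss. Cells without exclusion genes, which were shallower, then had 12.4% and 8.84%, and 3.81% and 2.69%.

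Depth and sample quality differed between libraries. The filtered matrices held 11104738 to 89386898 UMIs, and median UMIs per cell were 4070 to 9629 in cardiac progenitor cells and 1709.5 to 6317 in other cells. The median mitochondrial share of UMIs was 3.80 to 7.37% in cardiac progenitor cells. Of the cardiac progenitor cells 238 (8.98%) were among the barcodes with the highest doublet scores. This group held 12697 of the 107749 barcodes in all, those with too few genes for the rule included. Its size was fixed by a set rate of 0.8% per 1000 barcodes, so it is not a measured share of doublets. Across libraries 1372 barcode sequences occurred in 2 or more libraries, pairs of libraries shared 7 to 115, and 70 cardiac progenitor cells had a barcode found in another library, but no barcode was a cardiac progenitor cell in 2 of them.

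The 4ss replicates stood apart from each other more than the replicates of other stages. Between summed cardiac progenitor cells, the chi-square per gene was 57.6 for the 4ss replicates, 6.41 for 1ss and 4.80 for 7ss. This measure grows with the number of UMIs, and the 4ss sums were the deepest. The correlation of log2 levels over 4750 genes was 0.932 between the 4ss replicates, 0.980 at 1ss and 0.976 at 7ss. The heat-shock gene HSP90AA1 shows the split. In cardiac progenitor cells HH5 replicates had 4557 and 2471 CPM (a gene's UMIs per 1000000 UMIs of the summed cells), 1ss replicates 2479 and 1944, 4ss replicates 1799 and 275, 7ss replicates 178 and 209.8, and the HH11 library 3509.7. In the other cells it was 3962 and 2087 CPM, 2362 and 2017, 2083 and 468, 512 and 786, and 4560.3 at the same stages. Thus 4ss replicate 1 resembled 1ss and 4ss replicate 2 resembled 7ss in all cells, and the part of this split in the stage results below was not tested.

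The 6 marker genes describe what was selected. GATA5, a zinc finger factor of cardiac mesoderm and endoderm, carried the rule most often. It was detected in 87.2 to 98.2% of the cardiac progenitor cells of a library, and its level was 466 to 751 CPM there, against 5.60 to 74.0 CPM in the other cells. RBM24, a splicing regulator of heart and skeletal muscle, was detected in 67.2 to 93.8%. NKX2-5, the homeobox factor of the heart fields, was detected in 50.9 to 85.3%. The contractile genes were less uniform. Cardiac troponin T (TNNT2) was detected in 12.5 to 70.1% of cardiac progenitor cells, regulatory myosin light chain (MYL2) in 24.7 to 58.4%, and cardiac actin (ACTC1) in 22.6 to 55.4%. Other cells had a UMI of TNNT2 in 0.433 to 4.07% and of GATA5 in 1.99 to 17.3%, while cells with SOX21 or DLX5 had them in 0.515 to 4.72% and 1.48 to 14.9%.

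**Figure D2:**
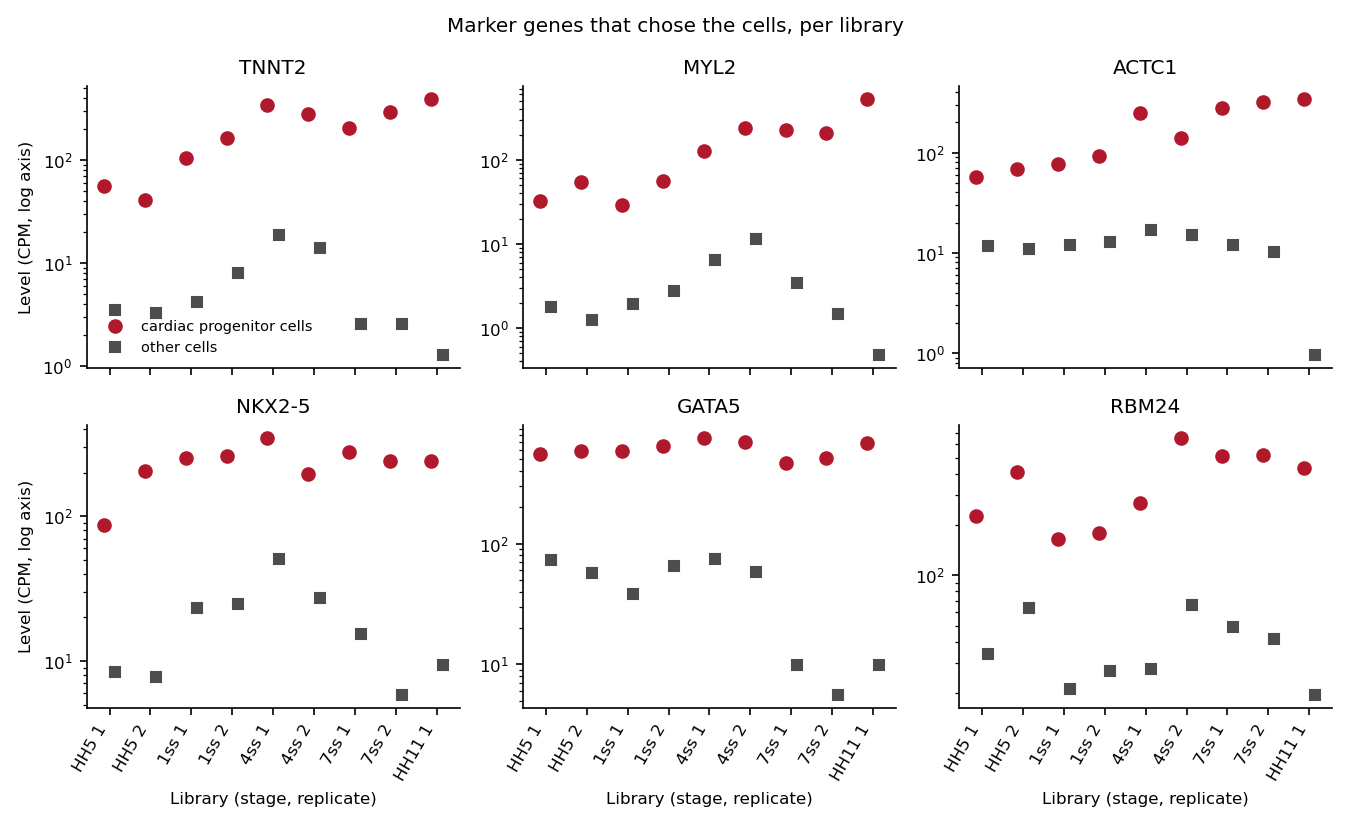
Level of the 6 marker genes of the rule (CPM, log axis) in summed cardiac progenitor cells (red circles) and other cells (grey squares) of each of the 9 libraries, named by stage and replicate. The genes chose the cells, so the gap between the groups is no result. GATA5 stays between 466 and 751 CPM in the cardiac progenitor cells, while TNNT2 runs from 41.0 to 391 CPM and MYL2 from 29.1 to 531 CPM.

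The contractile part of the label was carried unevenly by stage. Cells with UMIs of at least 2 of TNNT2, MYL2 and ACTC1 were 21.4% and 12.5% of the HH5 cardiac progenitor cells, 33.5% and 33.6% of those of 1ss, 57.9% and 55.4% of 4ss, 56.1% and 54.5% of 7ss and 41.9% of HH11. The same count was made in the cells with at least 2000 UMIs, thinned to 2000 UMIs. HH5 then had 2.53% and 0%, 1ss 3.73% and 9.82%, 4ss 25.0% and 27.9%, 7ss 22.9% and 28.5%, and HH11 16.1%. Cells with none of these 3 genes were 31 of 159 and 7 of 16 at HH5, and 29 of 170 and 51 of 247 at 1ss. At 4ss they were 76 of 634 and 103 of 894, and at 7ss 48 of 312 and 23 of 187. The rule asks for 3 markers, so a cell without contractile genes had to carry NKX2-5, GATA5 and RBM24 together. That most cells had a contractile gene thus follows in large part from the rule and is no evidence for the label. At HH5 the marker count itself did not exceed that of ectoderm cells, although in HH5 replicate 1 the cardiac transcription factors outside the rule summed to 471 CPM in cardiac progenitor cells, 139 CPM in other cells and 143 CPM in head mesoderm cells. Several further markers could not be followed. Over all cardiac progenitor cells PLN had 1 UMI, IRX4 had 8 and MYBPC3 had 15, of 21410321 UMIs.

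The cardiac progenitor cells were then set against the other cells of the same libraries over all genes outside the rule. UMIs were summed per library and cell group, 8 libraries had at least 20 cardiac progenitor cells, and edgeR tested 10894 genes with the library as a block. Of these, 1627 (14.9%) were higher and 1823 (16.7%) lower in cardiac progenitor cells at an adjusted p of 0.05. Cardiac transcription factors stood well above this background. Of 19 tested, 17 were higher and 1 lower, and their median log2 fold change was 2.49, beside -0.01 over all genes. The cells were chosen by genes that act with many of these factors, so the counts describe what accompanies the markers.

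HAND2, a basic helix-loop-helix factor of the heart tube, had a lowest, median and highest level over the 8 libraries of 11.0, 20.8 and 46.9 CPM in cardiac progenitor cells, against 0.291, 1.01 and 1.77 CPM in other cells. The log2 fold change was 4.47 (SE 0.28, adjusted p = 2.28e-08), and the 2 groups did not overlap. Its relative HAND1 had 8.24, 22.1 and 31.2 CPM in cardiac progenitor cells and 0.146, 1.31 and 4.89 CPM in other cells (log2 fold change 3.94, SE 0.33, adjusted p = 5.11e-07). TBX20, a T-box factor needed for chamber growth, had 6.80, 11.8 and 52.1 CPM in cardiac progenitor cells and 0.0555, 0.468 and 1.06 CPM in other cells (4.81, SE 0.44, adjusted p = 1.05e-06). All 8 libraries agreed in direction for these 3 factors. TBX5, the T-box factor of the first heart field, was less even. It stood at 0, 8.34 and 43.8 CPM in cardiac progenitor cells and 0, 0.449 and 1.77 CPM in other cells, was higher in 7 of 8 libraries and was listed at 0 in the cardiac progenitor cells of HH11 (4.58, SE 0.24, adjusted p = 4.57e-09).

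The GATA factors outside the rule went the same way. GATA6 had 67.6, 119 and 203 CPM in cardiac progenitor cells, against 1.33, 12.9 and 38.8 CPM in other cells, and GATA4 had 2.54, 13.5 and 36.5 CPM, against 0.305, 1.38 and 4.16 CPM. Their log2 fold changes were 3.61 (SE 0.35, adjusted p = 1.85e-06) and 3.40 (SE 0.30, adjusted p = 7.89e-07), and GATA4 overlapped between groups across libraries but not within any. ZFPM1, a cofactor that binds GATA proteins, had a small error, with 71.1, 81.7 and 110.1 CPM in cardiac progenitor cells and 9.98, 12.4 and 17.2 CPM in other cells (2.74, SE 0.06). MEF2C, a MADS-box factor of the second heart field and of muscle, had a log2 fold change of 4.21 (SE 0.26), NKX2-6, the pharyngeal and sinus relative of NKX2-5, had 3.17 (SE 0.46), and SRF, which drives actin genes, had 1.48 (SE 0.11). HOPX, a small homeodomain protein, was the exception, at 0 to 1.27 CPM in cardiac progenitor cells and 0.333 to 2.83 CPM in other cells (-1.20, SE 0.33, adjusted p = 0.0122). The HOPX call was lost without the library block, at adjusted p = 0.228.

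**Figure D3:**
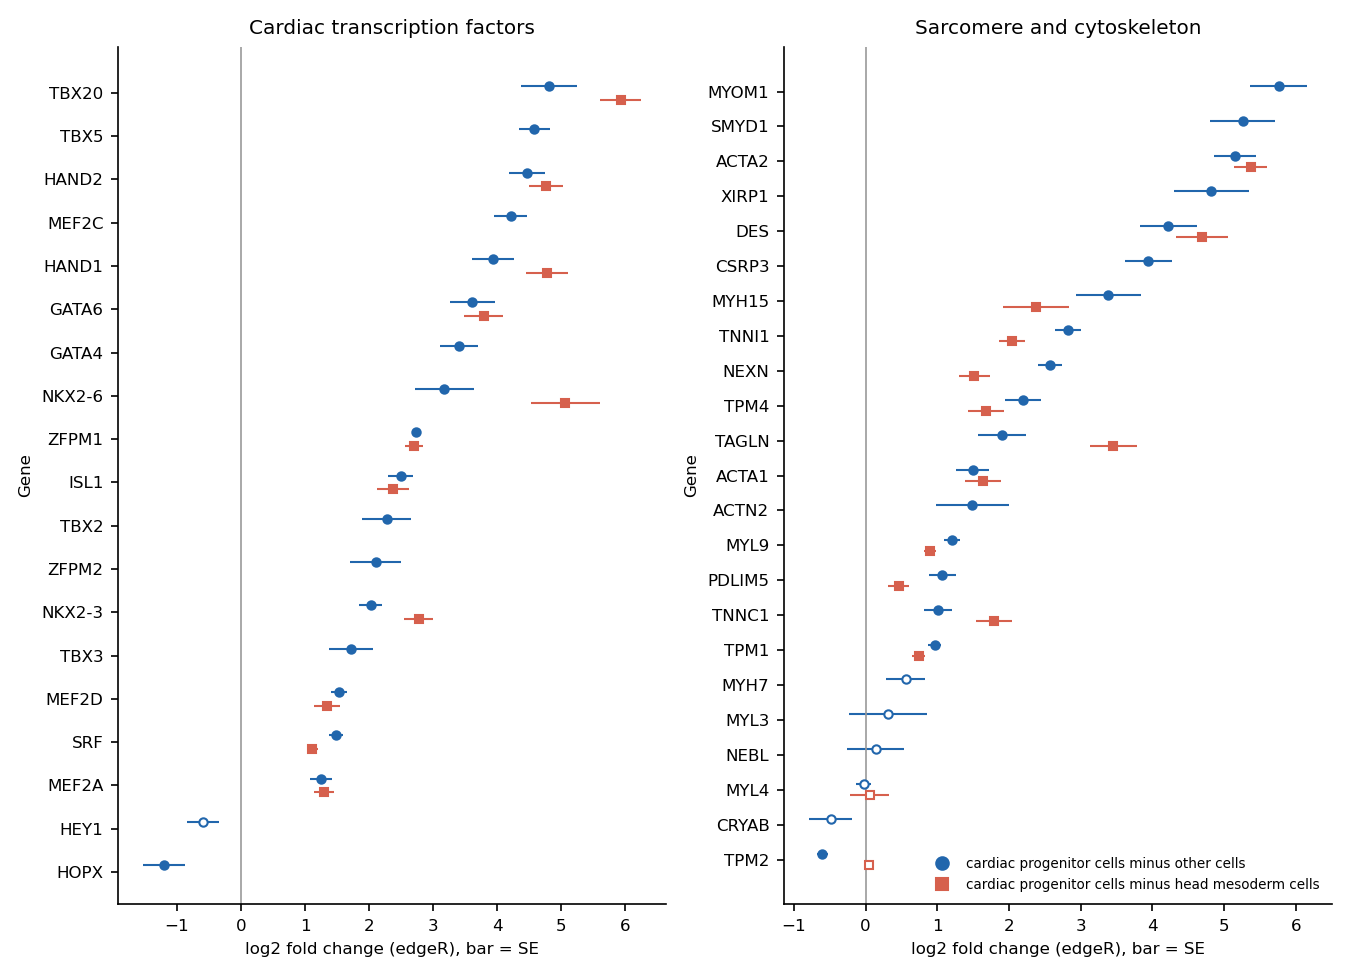
Log2 fold changes from edgeR for genes of the cardiac transcription factor list (left) and the sarcomere and cytoskeleton list (right), cardiac progenitor cells minus other cells (blue circles) and minus head mesoderm cells (red squares). Bars are SE, filled symbols have an adjusted p under 0.05, and genes without a red symbol were not tested against head mesoderm cells. TBX20, HAND1, HAND2 and ACTA2 lie above 3 against both groups, HOPX and TPM2 lie below 0 against other cells, and MYL4 lies near 0 in both.

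Second heart field genes were also higher in part. Of 8 tested, 5 were higher and 0 lower (median log2 fold change 1.52). ISL1, the LIM homeobox factor that marks this field, had 28.5, 62.5 and 115 CPM in cardiac progenitor cells and 1.97, 12.01 and 27.0 CPM in other cells (2.49, SE 0.19, adjusted p = 2.29e-07), with no overlap. ALDH1A2, which makes retinoic acid in posterior heart and epicardial mesoderm, had 4.84, 20.02 and 93.7 CPM in cardiac progenitor cells and 0.804, 1.57 and 6.53 CPM in other cells (3.28, SE 0.39). TCF21, a factor of epicardium and pharyngeal mesoderm, had 19.0, 65.7 and 153 CPM in cardiac progenitor cells and 1.83, 5.42 and 8.39 CPM in other cells (3.79, SE 0.20). Of 7 early mesoderm genes 5 were higher and 1 lower, among the higher ones the growth factor receptors PDGFRA (2.62, SE 0.18) and KDR (1.64, SE 0.27), both of which mark lateral mesoderm.

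Among contractile and cytoskeletal genes outside the rule, 17 of 23 tested were higher and 1 was lower (median log2 fold change 1.497). TNNT2, MYL2 and ACTC1 helped choose the cells, so these counts too describe what accompanies the markers. ACTA2, smooth muscle actin, had 8.29, 522 and 2036 CPM in cardiac progenitor cells and 0.397, 13.5 and 32.3 CPM in other cells. Its log2 fold change was 5.15 (SE 0.29, adjusted p = 8.39e-09), with the HH5 library lowest and HH11 highest. MYOM1, which ties myosin filaments together at the M band, had 0, 20.6 and 52.1 CPM in cardiac progenitor cells and at most 0.980 CPM in other cells (5.76, SE 0.40), and the 0 was the HH5 library. DES, the muscle intermediate filament desmin, had 0.691, 29.1 and 67.7 CPM, against 0.490, 0.948 and 4.63 CPM (4.22, SE 0.40). These genes were low at HH5 and clear of the other cells from 1ss or 4ss onwards.

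The troponins and tropomyosins outside the rule were less selective, since other cells also held them. Slow skeletal troponin I (TNNI1), the form of the embryonic heart, had 95.4, 271 and 359.7 CPM in cardiac progenitor cells and 12.04, 37.2 and 46.7 CPM in other cells (2.83, SE 0.18, adjusted p = 3.19e-08). TPM4 had 137, 574 and 1135 CPM in cardiac progenitor cells and 77.1, 103 and 125 CPM in other cells (2.20, SE 0.25). TNNC1, the slow and cardiac troponin C, had 171, 583 and 1025 CPM in cardiac progenitor cells and 145, 195 and 372 CPM in other cells (1.01, SE 0.20, adjusted p = 0.00104) and was higher in 7 of 8 libraries. TPM2 was lower, with 72.1, 139 and 276 CPM in cardiac progenitor cells and 156, 212 and 285 CPM in other cells (-0.60, SE 0.08, adjusted p = 2.94e-05). MYH15, a myosin heavy chain that in the chick is expressed in ventricle, rested on HH11 for its highest value, 422 CPM, with a median of 15.0 CPM in cardiac progenitor cells and 2.09 CPM in other cells (3.38, SE 0.45).

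By size of change, the 10 genes that led the higher side were TRIM55, ACTA2, APOBEC2, XIRP1, HAND2, RBPMS2, FHL2, HAND1, ITGB1BP2 and IRX6. Here and below, leading genes were taken from those with a mean of at least 20 CPM in the higher group. They also had the same direction in every library or, between stages, no overlap. Some genes with wider changes are thus not among them. Most are known from muscle. TRIM55, a ubiquitin ligase of the sarcomere, had 2.76, 47.6 and 78.1 CPM in cardiac progenitor cells and 0.0832, 0.545 and 2.88 CPM in other cells (5.22, SE 0.43). XIRP1 (Xin), an actin-binding repeat protein of the chick heart, had a log2 fold change of 4.82 (SE 0.52), APOBEC2, a muscle member of the deaminase family, 4.93 (SE 0.32), FHL2, a LIM protein of heart muscle, 3.97 (SE 0.43), and ITGB1BP2 (melusin), which binds integrin in striated muscle, 3.92 (SE 0.22). RBPMS2, an RNA-binding protein of heart and smooth muscle, had 72.6, 370.1 and 411 CPM in cardiac progenitor cells and 8.60, 16.7 and 34.7 CPM in other cells (3.98, SE 0.26). IRX6, an Iroquois homeobox factor, had 55.3, 119 and 209.7 CPM and 3.38, 8.29 and 15.8 CPM (3.87, SE 0.22).

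Calcium handling genes and muscle metabolism genes went both ways. Of 8 calcium and ion channel genes tested 3 were higher and 1 lower (median 0.64). The channel subunit CACNA1C carries the calcium current of the heartbeat. It had 0.691, 5.76 and 52.1 CPM in cardiac progenitor cells, HH11 highest, and 0.110, 0.384 and 1.05 CPM in other cells (4.05, SE 0.29). The calcium pump ATP2A2 differed by 0.46 (SE 0.10), and the potassium channel KCNJ2 was lower (-1.16, SE 0.25). Without the library block the calls of ATP2A2 (adjusted p = 0.747) and KCNJ2 (adjusted p = 0.127) were lost. Of 11 metabolic genes 1 was higher and 3 were lower (median 0.07), beside 14.9% higher and 16.7% lower over all genes. Counts this small do not set the metabolic list apart. Its lower genes included the creatine kinase CKB (-1.88, SE 0.19) and the fatty acid binding protein FABP3 (-2.20, SE 0.13). Cell cycle genes lay near the background, with 1 of 19 higher and 5 lower (median -0.12), and cyclin D1 (CCND1) had 72.2, 132 and 156 CPM in cardiac progenitor cells and 121, 167 and 287 CPM in other cells (-0.54, SE 0.08).

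Of 22 BMP pathway genes 12 were higher and 2 lower (median 0.41). The ligands BMP2, BMP4 and BMP5 were higher. BMP2 had 11.7, 25.2 and 104 CPM in cardiac progenitor cells and 6.69, 10.3 and 16.0 CPM in other cells (1.56, SE 0.20), BMP5 had a log2 fold change of 1.92 (SE 0.23), and BMP4 had one of 1.62 (SE 0.39, adjusted p = 0.00548) in 7 of 8 libraries. The inhibitors that BMP signalling itself induces were higher too. SMAD6 had 90.0, 138 and 344 CPM in cardiac progenitor cells and 11.98, 24.4 and 36.8 CPM in other cells (2.65, SE 0.15), and the pseudoreceptor BAMBI had 157, 410.0 and 630.1 CPM and 31.3, 47.8 and 88.4 CPM (2.80, SE 0.25). The target MSX2 (2.37, SE 0.14) and ID4 (1.59, SE 0.14) were higher, while the secreted antagonists noggin (NOG, -1.70, SE 0.28) and chordin (CHRD, -3.48, SE 0.32), both made by notochord, were lower. None of the 8 libraries overlapped between groups for SMAD6 or BAMBI.

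Wnt and FGF genes went both ways, with 8 of 22 higher and 7 lower (median -0.11). The ligands WNT11, known to promote heart formation in frog and chick, and WNT5A were higher (2.38, SE 0.25, and 1.57, SE 0.14). The secreted Wnt inhibitors SFRP2 and FRZB were lower. SFRP2 had 26.3, 53.7 and 78.8 CPM in cardiac progenitor cells and 119, 240.1 and 422 CPM in other cells (-2.26, SE 0.22), and FRZB had 32.8, 50.6 and 105 CPM and 83.8, 196 and 656 CPM (-2.38, SE 0.14). DUSP6, a phosphatase induced by FGF, was higher (1.57, SE 0.16). Of 19 matrix and adhesion genes 11 were higher and 2 lower (median 0.62). Among them HAS2, which makes the hyaluronan of cardiac jelly, had 39.2, 92.7 and 141 CPM in cardiac progenitor cells and 6.38, 22.5 and 46.1 CPM in other cells (2.17, SE 0.17), and fibrillin FBN2 differed by 2.60 (SE 0.19). Periostin (POSTN, -1.52, SE 0.34) and the laminin receptor ITGA6 (-1.85, SE 0.27) were lower, and the POSTN call was lost without the library block (adjusted p = 0.110).

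Markers of other cell types were counted over the same libraries. All 8 neural markers tested were lower (median -4.03). Their summed level was 16.0 to 37.8 CPM in cardiac progenitor cells and 334 to 609.98 CPM in other cells. The rule removes cells with SOX21 and DLX5, so this side of the comparison follows in part from how the cells were chosen. The 10 genes that led the lower side were of the same kind, with HES5, FEZF2, PAX6, SIX3, SOX1, NKX6-2 and LMX1B of the neural plate, CHRD of the notochord, CYP26A1, which degrades retinoic acid, and FOXA1, a factor of endoderm and floor plate. HES5, a Notch target, had 0, 3.82 and 6.97 CPM in cardiac progenitor cells and 59.5, 140.4 and 225 CPM in other cells (-4.88, SE 0.12, adjusted p = 1.56e-12). When other cells with a UMI of the 4 exclusion genes were left out, an alternative chosen after seeing the data, 2913 genes were called, beside 3450.

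Markers of epithelium split. Of 9 genes of the non-neural ectoderm list 2 were higher and 5 lower, and the higher ones were the keratins KRT18 and KRT7 of simple epithelia. KRT18 had 586, 827 and 1781 CPM in cardiac progenitor cells and 64.0, 184 and 429 CPM in other cells (2.42, SE 0.34), and KRT7 had 341, 665 and 1521 CPM and 49.4, 104 and 181 CPM (2.71, SE 0.32). Neither overlapped between groups. The adhesion molecule EPCAM had 101, 117 and 161 CPM in cardiac progenitor cells and 149, 409 and 842 CPM in other cells (-1.70, SE 0.22), and the tight junction gene CLDN1 fell by 3.19 on the log2 scale (SE 0.30). The summed level of the list was 1171 to 3655 CPM in cardiac progenitor cells and 460.4 to 1707 CPM in other cells.

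Markers of head mesoderm were shared. Of 5 tested 4 were higher and 1 lower than in other cells. PRRX1, a homeobox factor of mesenchyme, had 136, 381 and 539.6 CPM in cardiac progenitor cells and 20.6, 52.9 and 88.5 CPM in other cells (2.80, SE 0.10), TWIST1 differed by 1.69 (SE 0.18) and the proteoglycan LUM by 2.84 (SE 0.17). Their summed level was 624 to 1172 CPM in cardiac progenitor cells, 134 to 346 CPM in other cells and 1073 to 2321 CPM in the head mesoderm cells described next. Endothelial markers were higher in 4 of 8 and lower in 0, at a summed 36.6 to 198 CPM in cardiac progenitor cells and 13.6 to 85.6 CPM in other cells. Endoderm markers were higher in 1 of 8 and lower in 4, at 234 to 674 CPM and 83.4 to 1072 CPM. Their median summed level was nevertheless highest in cardiac progenitor cells, at 493 CPM, against 325 CPM in other cells and 401 CPM in head mesoderm cells. Neural crest markers were higher in 1 of 6 and lower in 4, at 46.1 to 136 CPM and 39.8 to 224 CPM. Blood markers were higher in 2 of 3, at 13.8 to 79.3 CPM and 6.90 to 373 CPM. The globin HBAD had 6.22, 15.9 and 40.5 CPM in cardiac progenitor cells and 0.583, 1.95 and 47.2 CPM in other cells (2.85, SE 0.41), but its call was lost without the library block (adjusted p = 0.330). Notochord markers were lower in 5 of 5, at 10.3 to 45.6 CPM and 56.3 to 202 CPM, and of 5 skeletal muscle markers 1 was abundant enough to test (MYF6, higher, with the list at 0 to 18.5 CPM and 0.808 to 1.75 CPM). The part of free RNA, doublets and neighbouring cell types in these values was not tested. Of the 72 genes followed singly in this comparison 71 kept their call in each of the 8 fits that left out 1 library, and MYOM1 kept it in the 7 fits whose low-count filter it passed. Without the library block 1492 genes were called.

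A closer comparison took other mesoderm of the same libraries. Head mesoderm cells were defined as cells with UMIs of at least 3 of 6 head mesoderm genes, TWIST1, PRRX1, TBX1, CYP26C1 and LUM among them, that were not cardiac progenitor cells and had no UMI of the 4 exclusion genes, SOX10 or FOXD3. There were 3288, with 33 to 742 per library and median UMIs of 3100 to 13343. Of 8008 genes tested by edgeR over 8 libraries, 867 (10.8%) were higher and 744 (9.29%) lower in cardiac progenitor cells. Of 22 cardiac transcription factors in the data 11 passed the low-count filter, and all 11 were higher (median log2 fold change 2.77, beside -0.01 over all genes). The filter keeps a gene that is expressed in 1 of the 2 groups alone. The cardiac progenitor cells were chosen by genes that act with many of these factors, and head mesoderm cells exclude them. The count thus describes what accompanies the markers. TBX20 had 6.80, 11.8 and 52.1 CPM in cardiac progenitor cells and 0, 0.183 and 0.692 CPM in head mesoderm cells (5.92, SE 0.32, adjusted p = 4.78e-09). HAND1, HAND2 and GATA6 differed by 4.78 (SE 0.33), 4.76 (SE 0.26) and 3.79 (SE 0.31), NKX2-6 by 5.06 (SE 0.54, higher in 7 of 8 libraries) and ISL1 by 2.38 (SE 0.25). Without the library block 350 genes were called.

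Of 31 contractile genes in the data 14 passed the filter and were tested against head mesoderm cells. Of these 12 were higher and 0 lower (median 1.66), with smooth muscle genes and DES among the widest differences. Here too the contractile genes of the rule had helped choose the cardiac progenitor cells, so the counts describe what accompanies the markers. ACTA2 had 8.29, 522 and 2036 CPM in cardiac progenitor cells and 0.447, 12.8 and 128 CPM in head mesoderm cells (5.37, SE 0.23, adjusted p = 6.29e-10). TAGLN, an actin-bundling protein of smooth muscle, had 4.44, 34.9 and 141 CPM and 1.54, 4.23 and 28.7 CPM (3.45, SE 0.33). DES differed by 4.69 (SE 0.36), TNNI1 by 2.04 (SE 0.19) and TPM4 by 1.68 (SE 0.25). Head mesoderm cells thus held TPM4 at 97.7 to 181 CPM and TNNI1 at 25.2 to 88.4 CPM but little ACTA2 or DES before HH11. The 6 genes that chose the head mesoderm cells were not tested here.

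Signalling genes also differed between the 2 kinds of mesoderm. BMP pathway genes were higher in 10 of 19 and lower in 2 (median 0.39). BMP4 had 4.84, 26.6 and 172 CPM in cardiac progenitor cells and 0.893, 4.13 and 13.7 CPM in head mesoderm cells (3.39, SE 0.21), BAMBI differed by 3.43 (SE 0.17) and MSX2 by 4.40 (SE 0.24). CFC1, a co-receptor for Nodal, had 118, 209.8 and 378 CPM and 0.845, 10.8 and 55.3 CPM (4.49, SE 0.43), with no overlap. Fibronectin (FN1) had 123, 340.2 and 1151 CPM in cardiac progenitor cells and 39.1, 65.5 and 119.6 CPM in head mesoderm cells (2.60, SE 0.23), and the hyaluronan link protein HAPLN1 differed by 2.21 (SE 0.22). KRT18 differed by 2.66 (SE 0.38) and TCF21 by 2.63 (SE 0.34, higher in 7 of 8 libraries). Of the markers of other cell types, 4 of 7 non-neural ectoderm genes were higher and 0 lower than in head mesoderm cells. Endoderm markers were higher in 2 of 4 and lower in 0, beside 10.8% higher over all genes. The part of epithelial or endoderm cells among the cardiac progenitor cells was not tested. Among the 10 leading higher genes were also the LIM protein FHL2 (4.68, SE 0.40), the lipid droplet protein CIDEC (4.60, SE 0.18) and the kinase PLK2 (3.92, SE 0.21).

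Genes lower in cardiac progenitor cells than in head mesoderm cells were led by SST, TBX22, FST, RSPO2, DACT2, NEDD9, NR2F2, CNTN2, EBF2 and DIXDC1. SST, the peptide somatostatin, had 0, 53.7 and 129.9 CPM in cardiac progenitor cells and 21.7, 1028 and 1939 CPM in head mesoderm cells (-4.06, SE 0.19, adjusted p = 8.65e-10). TBX22, a T-box factor of craniofacial mesenchyme, had 0.823, 4.18 and 12.04 CPM and 19.8, 44.1 and 139.6 CPM (-3.70, SE 0.20), with no overlap. Follistatin (FST), which binds activin and BMPs, had 0, 9.47 and 75.3 CPM and 8.77, 134 and 467 CPM (-3.33, SE 0.19). RSPO2, DACT2 and DIXDC1 act on Wnt signalling and had log2 fold changes of -2.87 (SE 0.34), -2.84 (SE 0.20) and -2.41 (SE 0.16), and the nuclear receptor NR2F2 had -2.59 (SE 0.10). Second heart field genes went both ways, with 3 of 5 higher and 2 lower. Among the lower genes was EYA1, a transcriptional cofactor of head muscle and placodes, with 0, 2.82 and 5.29 CPM in cardiac progenitor cells and 8.20, 18.8 and 31.9 CPM in head mesoderm cells (-2.48, SE 0.16). SFRP1 (-1.14, SE 0.10) and collagen COL1A1 (-0.54, SE 0.08) were lower too, and the calls of COL1A1 (adjusted p = 0.699) and FST (adjusted p = 0.0503) were lost without the library block. Cell cycle genes were higher in 2 of 19 and lower in 7 (median -0.19). Of the 35 genes followed singly here 33 kept their call in each of the 8 fits that left out 1 library, and DES and NKX2-6 kept theirs in the 4 and 5 fits whose low-count filter they passed.

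Changes with stage were tested between summed cardiac progenitor cells. The planned comparisons with HH5 were not made, since 1 HH5 library alone had at least 20 such cells. For 7ss against 1ss, edgeR over 7 libraries called 349 of 8774 genes (3.98%) higher and 362 (4.13%) lower at 7ss. Of 25 contractile genes 14 were higher and 0 lower (median log2 fold change 2.18, beside 0.05 over all genes). TNNT2, MYL2 and ACTC1 helped choose the cells at both stages. Cells with UMIs of at least 2 of them were 33.5% and 33.6% at 1ss, and 56.1% and 54.5% at 7ss. The part of this in the contractile count was not tested. ACTA2 had 945 and 989 CPM at 7ss, against 97.3 and 152 CPM at 1ss (2.91, SE 0.28, adjusted p = 0.00135), and the 4ss libraries lay between at 469.5 and 574 CPM. TAGLN had 104 and 125 CPM at 7ss, against 4.44 and 6.30 CPM at 1ss (4.36, SE 0.51, adjusted p = 0.00260). The count of calls rested on single libraries. It was 1 without 1ss replicate 1, 25 without 1ss replicate 2, 8 without 7ss replicate 1, 16 without 7ss replicate 2, 2577 without 4ss replicate 1 and 2595 without 4ss replicate 2. A stage left with 1 library was assumed to vary like the other stages. CSRP2, a LIM protein of smooth muscle and the early heart, was the 1 gene of 41 followed singly that passed the test in all 7 fits that left out 1 library, and ACTA2, TAGLN, FN1, VCAN and LUM passed it in 6 of 7.

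CSRP2 had 258 and 222 CPM at 7ss, against 14.3 and 12.6 CPM at 1ss (4.13, SE 0.27, adjusted p = 3.38e-05). The 4ss libraries had 40.9 and 47.1 CPM and the HH11 library 349 CPM. TNNC1 had 1025 and 866 CPM at 7ss, against 186 and 257 CPM at 1ss (2.05, SE 0.40, adjusted p = 0.0181), and its 4ss libraries had 365 and 972 CPM, so that 4ss replicate 1 stood near 1ss and 4ss replicate 2 near 7ss. TPM4 did the same, with 889 and 884 CPM at 7ss, against 179 and 202 CPM at 1ss, and 341 and 808 CPM at 4ss (2.18, SE 0.35). ACTA1, skeletal actin, had 78.6 and 91.9 CPM at 7ss, against 13.3 and 20.8 CPM at 1ss (2.27, SE 0.36). DES had 45.0 and 30.4 CPM at 7ss, against 4.44 and 7.27 CPM at 1ss (2.66, SE 0.39), and MYOM1 had 26.8 and 32.3 CPM, against 0.987 and 3.88 CPM (3.53, SE 0.59). For ACTA2, CSRP2 and DES the 4ss replicates stayed close to each other, unlike for TNNC1 and TPM4.

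**Figure D4:**
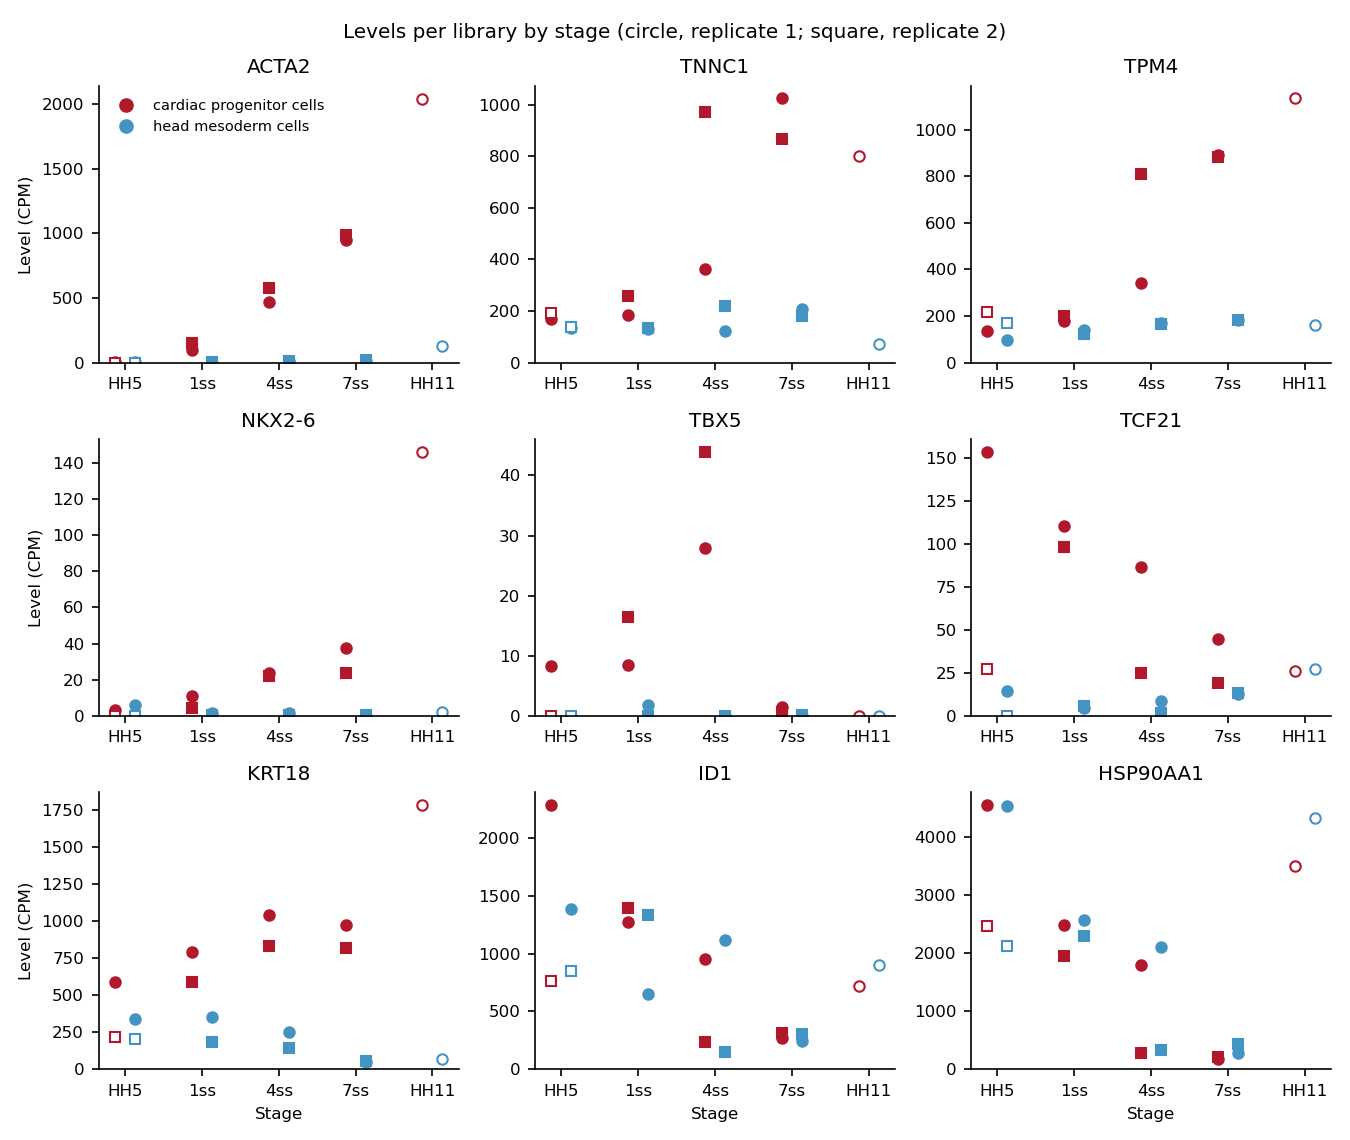
Level (CPM) of 9 genes in summed cardiac progenitor cells (red) and head mesoderm cells (blue) by stage, 1 point per library (circle, replicate 1 and square, replicate 2). Open symbols are HH5 replicate 2 and HH11, which were not in the stage test. ACTA2 reaches 945 and 989 CPM at 7ss in cardiac progenitor cells and lies far lower in head mesoderm cells, TBX5 peaks at 28.0 and 43.8 CPM at 4ss, and HSP90AA1 splits the 4ss replicates in both cell groups.

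Cardiac transcription factors had fewer calls between these stages, with 3 of 17 higher and 1 lower. By direction alone 13 of the 17 were lower at 7ss and 4 higher (median log2 fold change -0.51, beside 0.05 over all genes). TBX5 was lower, with 1.51 and 0.634 CPM at 7ss, against 8.39 and 16.5 CPM at 1ss (-3.40, SE 0.64, adjusted p = 0.0153), and was highest at 4ss with 28.0 and 43.8 CPM. NKX2-6 had 37.8 and 23.5 CPM at 7ss, against 10.9 and 4.36 CPM at 1ss (2.02, SE 0.42), SRF had 141 and 202 CPM, against 50.4 and 54.8 CPM (1.66, SE 0.31), and MEF2A had 31.4 and 37.4 CPM, against 10.4 and 11.1 CPM (1.63, SE 0.34). Second heart field genes were higher in 4 of 7 and lower in 0 (median 0.93), among them WNT11 with 29.9 and 44.4 CPM at 7ss, against 1.97 and 10.2 CPM at 1ss (2.53, SE 0.53). Head mesoderm markers went both ways, with 2 of 5 higher, LUM among them, and 1 lower (median 0.50). The lower one was TWIST1, with 139 and 118 CPM at 7ss, against 319 and 279 CPM at 1ss (-1.24, SE 0.32). Its call was lost with at least 4 markers (adjusted p = 0.0811).

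Matrix genes were higher in 5 of 19 and lower in 0 (median 0.82). FN1 had 579 and 811 CPM at 7ss, against 167 and 148 CPM at 1ss (2.10, SE 0.23, adjusted p = 0.00193). The proteoglycan versican (VCAN), part of cardiac jelly, had 206 and 264 CPM at 7ss, against 44.4 and 56.2 CPM at 1ss (2.17, SE 0.24), and N-cadherin (CDH2), which joins heart muscle cells, had 399.8 and 439 CPM, against 159 and 129 CPM (1.51, SE 0.22). The proteoglycan LUM, from the head mesoderm list, had 75.6 and 75.4 CPM at 7ss, against 11.4 and 7.27 CPM at 1ss (2.99, SE 0.31). In the BMP pathway 2 of 19 genes were higher and 2 lower (median -0.17), beside 3.98% higher and 4.13% lower over all genes. Calls this few describe single genes and not the pathway. BMP4 had 105 and 98.9 CPM at 7ss, against 25.7 and 14.1 CPM at 1ss (2.35, SE 0.30), and BAMBI had 503 and 439 CPM, against 182 and 287 CPM (0.96, SE 0.27, adjusted p = 0.0490, and 0.0579 with at least 4 markers). The targets ID1 and ID2 were lower. ID1 had 269 and 314 CPM at 7ss, against 1273 and 1395 CPM at 1ss (-2.23, SE 0.47), and its 4ss libraries had 958 and 239 CPM, the split seen for HSP90AA1. Endothelial markers were higher in 3 of 8 and lower in 0.

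Of 19 cell cycle genes 1 was higher and 4 were lower at 7ss. CDK1, the mitotic kinase, had 389 and 385 CPM at 7ss, against 1078 and 934 CPM at 1ss (-1.41, SE 0.29), and AURKA had 89.6 and 94.4 CPM, against 254 and 216 CPM (-1.38, SE 0.27). Both also split the 4ss libraries, at 982 and 489 CPM and at 193 and 104 CPM. The inhibitor CDKN1A, which halts the cycle, led the higher side beside WNT4, with 28.7 and 29.2 CPM at 7ss, against 0.987 and 0.485 CPM at 1ss (5.20, SE 1.27, adjusted p = 0.0358), and WNT4 had 29.5 and 36.1 CPM, against 0.494 and 0.485 CPM (5.91, SE 0.92). At 1ss CDKN1A and WNT4 rested on very few UMIs, since the summed cells held 2025575 and 2062972 UMIs in all. The sizes of their changes are thus uncertain. The other leading higher genes were CA2, BORCS6, CCDC141, CLMP and MERTK, with log2 fold changes of 3.32 to 4.02. With at least 4 markers the calls of CDKN1A (adjusted p = 0.0568), CA2 (0.145) and FST (0.124), which fell at 7ss, were lost. The heat-shock genes HSP90AA1 (-3.54, SE 0.63) and HSPH1 (-3.39, SE 0.67) stood among the 10 leading lower genes, with TFF2, FST, CDX4, BHLHE22, AGRP, FLAD1, PDE4D and DDX51 at -4.20 to -3.04. By the levels given above, HSP90AA1 was also lower at 7ss than at 1ss in the other cells. The part of the split between libraries in its fall was not tested. CDX4, a factor of posterior tissue, had 2.65 and 0 CPM at 7ss, against 4.94 and 38.3 CPM at 1ss, where the replicates differed widely, and its call was lost with DESeq2 (adjusted p = 0.102).

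The step in between was looked at with 2 comparisons added after seeing the data, because HH5 could not be used. For 4ss against 1ss edgeR called 0 of 8774 genes (0%). At an unadjusted p under 0.05 there were 774, and DESeq2 called 27. The count was 1661 without 4ss replicate 1 and 67 without 4ss replicate 2, and the part of the split of the 4ss libraries in this was not tested. For 7ss against 4ss edgeR called 5 genes (0.057%), with 848 at an unadjusted p under 0.05 and 20 by DESeq2. They were TBX5, lower at 7ss with 1.51 and 0.634 CPM, against 28.0 and 43.8 CPM at 4ss (-4.94, SE 0.58, adjusted p = 0.00952), and CSRP2 (2.40, SE 0.23), BMP4 (2.01, SE 0.28), LUM (1.99, SE 0.27, adjusted p = 0.141 with at least 4 markers) and TNNC2 (1.62, SE 0.22), all higher. TNNC2, skeletal troponin C, had 142 and 135 CPM at 7ss, against 43.2 and 43.8 CPM at 4ss. The count was 1663 without 4ss replicate 2, 42 without 4ss replicate 1, 2 without either 1ss library, 0 without 7ss replicate 1 and 1 without 7ss replicate 2.

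Whether these stage changes were those of head mesoderm at large was tested as the difference of the 7ss against 1ss change between cardiac progenitor cells and head mesoderm cells. The test used 7 libraries with both cell groups, with the library as a block, so a shift shared by all cells of a library drops out. Of 9487 genes 168 (1.77%) changed upward and 118 (1.24%) downward in cardiac progenitor cells relative to head mesoderm cells. DESeq2 called 85 genes in all, and edgeR 110 without 1ss replicate 1, 147 without 1ss replicate 2, 85 without 7ss replicate 1 and 126 without 7ss replicate 2. Of 26 contractile genes 9 went upward and 0 downward (median 1.67, beside -0.02 over all genes). The contractile genes of the rule helped choose the cardiac progenitor cells at both stages, and the part of this in the count was not tested. TNNC1 had 1025 and 866 CPM at 7ss and 186 and 257 CPM at 1ss in cardiac progenitor cells, against 206 and 180.1 CPM at 7ss and 129.5 and 135 CPM at 1ss in head mesoderm cells (difference 1.58, SE 0.15, adjusted p = 1.22e-06). TPM4 stood at 181 CPM in both 7ss libraries and at 142 and 122 CPM at 1ss in head mesoderm cells (difference 1.78, SE 0.26, adjusted p = 0.0846 with DESeq2), and TNNI1 differed by 1.06 (SE 0.16). MYL4, the atrial and embryonic light chain, had 112 and 139 CPM at 7ss and 135 and 98.4 CPM at 1ss in cardiac progenitor cells, against 60.5 and 62.1 CPM at 7ss and 246 and 169 CPM at 1ss in head mesoderm cells (difference 1.86, SE 0.16).

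FN1 and CDH2 belonged to the same upward group, with differences of 1.52 (SE 0.14) and 1.35 (SE 0.10). KRT18 had 972 and 820.2 CPM at 7ss and 789 and 586 CPM at 1ss in cardiac progenitor cells, against 48.3 and 56.3 CPM at 7ss and 349.7 and 181 CPM at 1ss in head mesoderm cells (difference 2.72, SE 0.17, adjusted p = 2.06e-09). Among the genes named by size, the widest upward difference was that of FKBP1B, a calcium channel regulator of heart muscle, with 211 and 119 CPM at 7ss and 25.2 and 33.4 CPM at 1ss in cardiac progenitor cells, against 56.0 and 47.2 CPM at 7ss and 213 and 139 CPM at 1ss in head mesoderm cells (4.26, SE 0.54). CFC1 was also upward (4.08, SE 0.30) and stayed at 118 to 229.8 CPM in cardiac progenitor cells while head mesoderm cells had 0.845 and 1.23 CPM at 7ss and 10.3 and 19.0 CPM at 1ss. On the downward side TCF21 had 44.6 and 19.0 CPM at 7ss and 111 and 98.4 CPM at 1ss in cardiac progenitor cells, against 12.9 and 13.6 CPM at 7ss and 4.47 and 5.65 CPM at 1ss in head mesoderm cells (-3.03, SE 0.39, adjusted p = 4.51e-05). FGFR2 (-2.31, SE 0.35) and CALD1 (-2.56, SE 0.42) were downward with higher 7ss levels in head mesoderm cells, 50.7 and 84.7 CPM and 28.0 and 43.3 CPM. Of the 27 genes followed singly, 14 kept their call when any 1 library was left out.

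How far a cell met the rule went with its other genes. This is a description without a test, since the number of markers is part of the rule and deeper cells show more markers. Just outside the rule, cells with exactly 2 markers and no exclusion gene numbered 438 and 722 at 4ss, and just inside it cells with 3 markers numbered 269 and 360. Over the 6 libraries of 1ss, 4ss and 7ss, ACTA2 had a lowest, median and highest level of 19.3, 62.5 and 102 CPM in cells with 2 markers, 45.1, 255 and 316 CPM with 3, 68.9, 401 and 885 CPM with 4, and 206, 784 and 2040.4 CPM with 5 or 6. TNNC1 had medians of 221, 341, 527 and 916 CPM, MYOM1 of 0.591, 4.04, 6.40 and 43.6 CPM, and GATA4 of 3.85, 7.83, 8.78 and 19.1 CPM in the same order. The ACTA2 medians with 2 and 3 markers, 62.5 and 255 CPM, lay above the 13.5 CPM median of other cells. That median covers 8 libraries, HH5 and HH11 among them, and other cells include the cells with 2 markers. The lowest library of cells with 2 markers, at 19.3 CPM, lay within the range of other cells.

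Other genes ran the opposite way. EPCAM had medians of 209.8, 149.97, 92.7 and 89.5 CPM in cells with 2, 3, 4 and 5 or 6 markers. HHEX, a factor of anterior endoderm that lies under the heart field, had 99.1, 115, 26.4 and 11.5 CPM. By its median HHEX was about as high just inside the rule as just outside it, with libraries differing in direction, and it was lowest in cells with 5 or 6 markers. Median UMIs in 4ss replicate 1 were 3677, 4361, 5161 and 8943 over the same 4 classes, and the part of depth in the gradient was not tested.

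**Figure D5:**
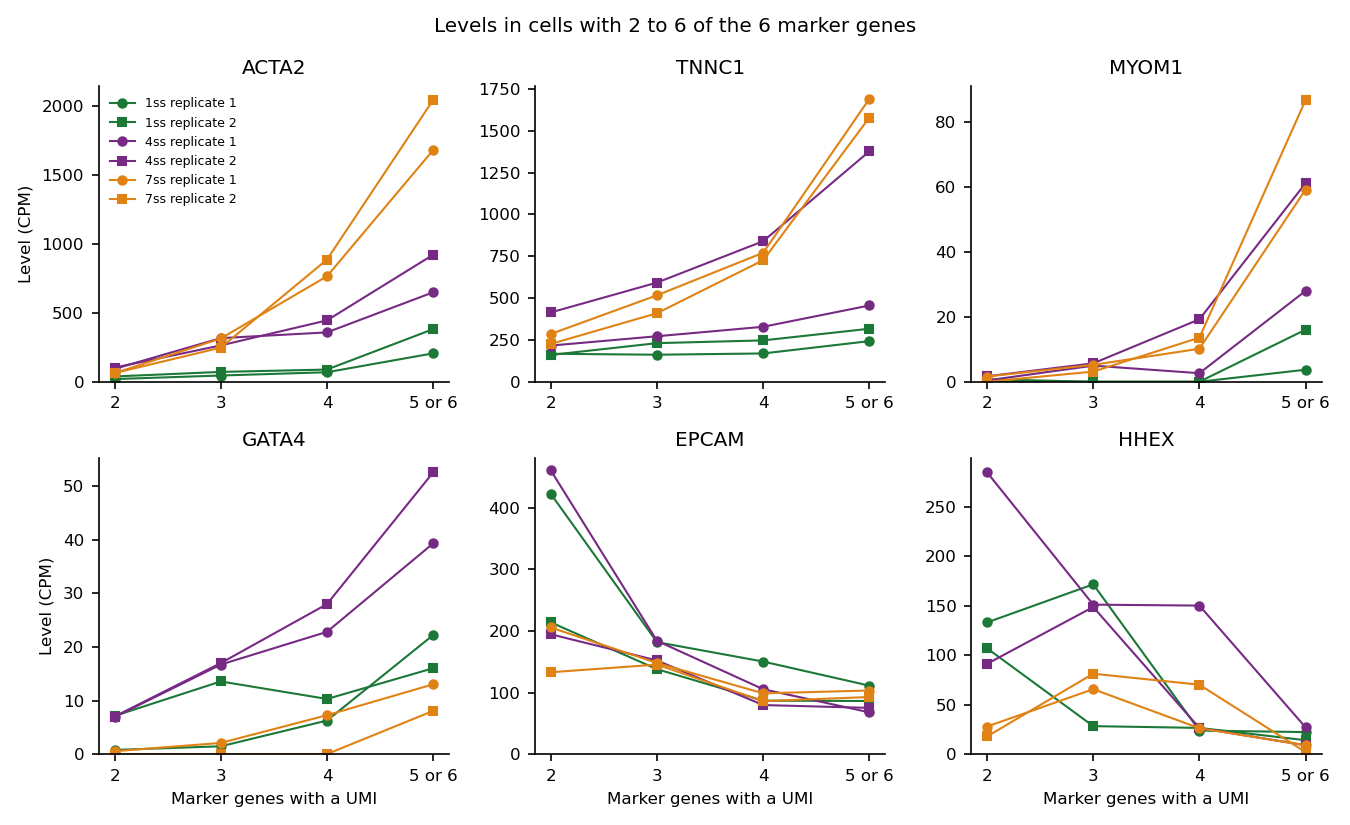
Level (CPM) of 6 genes in summed cells with 2, 3, 4 or 5 or 6 of the 6 marker genes and no exclusion gene, 1 line per library of 1ss, 4ss and 7ss (circle, replicate 1 and square, replicate 2). Cells with 2 markers are just outside the rule. ACTA2, TNNC1, MYOM1 and GATA4 are highest at 5 or 6 markers in all 6 libraries, HHEX is lowest there in all 6, and EPCAM in 4.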

How the data were processed

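The authors deposited filtered and raw matrices of whole-number UMI counts per gene and barcode. The submitters' processing notes name Cell Ranger 6.1.1, Seurat 4 and the build GRCg6a, and the embryo pooling is described for the first 4 stages. No normalization had been applied to these deposited counts, and no cell annotation was used here, so every cell group was rebuilt from marker genes. Cells were summed per library and cell group, with at least 20 cells asked of each sum. Doublets and free RNA were not removed in the main analysis.

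The summed counts were tested with the quasi-likelihood test of edgeR 4.0.16 in R 4.3.3 (limma 3.58.1), with TMM normalization, its filter on low counts and Benjamini-Hochberg adjustment over all genes tested, at 0.05. The comparisons with other cells and with head mesoderm cells had the library as a block, the stage fit had no block, and the interaction fit had cell group by stage with the library as a block. The 10 genes of the rule were left out of every test. The SE printed for edgeR was the absolute log2 fold change divided by the square root of the F statistic of the test. It is not an error fitted by edgeR itself. Python 3.11.15, scanpy 1.11.5 and scipy 1.17.1 read and summed the matrices. Code was tested on simulated data. A rule named, per comparison and direction, the 10 genes with the widest change among those past the threshold, changed the same way in every library (between stages, with no overlap of their libraries) and with a mean of at least 20 CPM in the higher group. Listed genes that passed could be named too. Where a symbol was listed more than once, its first entry was used. Of 16880 genes 4441 had no symbol.

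The cells, gene lists and tests were chosen with earlier results of these data known. Alternatives were DESeq2 1.42.0, no low-count filter, no library block or a replicate block, each library left out, doublets left out (0.8% per 1000 barcodes), at most 4000 genes and 40% mitochondrial UMIs, 10% free RNA subtracted, at least 4 markers, at least 1000 genes and sums of at least 50 cells. The planned comparisons with HH5 were not made, since HH5 replicate 2 had 16 of these cells. FOXC1 and FOXC2 of the head mesoderm list, and MYL7, TTN, MYH6, TNNI3 and SMARCD3, were not analysed here. Some genes are not reported here.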

Additional observations from a re-analysis of the deposited data

Results flagged for a closer look

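For 27 genes the change between 7ss and 1ss differed between cardiac progenitor cells and head mesoderm cells by the edgeR interaction test, and their differences of log2 fold changes follow. A difference can come from either cell group, and CFC1, KRT18 and MYL4 were lower at 7ss than at 1ss in head mesoderm cells. Upward in cardiac progenitor cells relative to head mesoderm cells were FKBP1B at 4.26, NEFM at 4.24, NKX2-6 at 4.21, CFC1 at 4.08, SDC3 at 3.27, RSPO2 at 3.19, MYO3A at 3.15, MYL3 at 3.15, CHRNA4 at 3.13 and COL13A1 at 3.12. With DESeq2 the calls of NEFM (adjusted p = 0.0770), NKX2-6 (0.0819), MYO3A (0.112) and COL13A1 (0.0585) were lost, and with 10% free RNA subtracted those of NKX2-6 (0.0704) and MYL3 (0.0995). They include a neurofilament (NEFM), a syndecan (SDC3), a ventricular myosin light chain (MYL3) and an acetylcholine receptor subunit (CHRNA4). Of genes in the lists, KRT18 differed by 2.72, MYL4 by 1.86, TPM4 by 1.78, TNNC1 by 1.58, FN1 by 1.52, CDH2 by 1.35 and TNNI1 by 1.06, and the TPM4 call was lost with DESeq2 (adjusted p = 0.0846).

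Downward relative to head mesoderm cells were TCF21 at -3.03, CALD1 at -2.56, FGFR2 at -2.31, MSX1 at -2.23, BMPR1B at -2.20, MID1 at -1.91, SNAI1 at -1.91, JCAD at -1.71, PODXL at -1.58 and THBS4 at -1.46. With DESeq2 the calls of BMPR1B (adjusted p = 0.235), MID1 (0.0651), SNAI1 (0.288) and THBS4 (0.454) were lost, and THBS4 was also lost under 4 other alternatives (0.0532 to 0.342). With 10% free RNA subtracted the MSX1 difference turned to 0.96 (adjusted p = 0.720). MSX1, a BMP target, was uneven between the 1ss replicates, with 75.6 and 77.3 CPM at 7ss and 101 and 317 CPM at 1ss in cardiac progenitor cells, against 19.4 and 19.99 CPM at 7ss and 9.38 and 12.3 CPM at 1ss in head mesoderm cells. RSPO2 was low in cardiac progenitor cells throughout, with 5.67 and 2.54 CPM at 7ss and 4.94 and 2.42 CPM at 1ss, against 7.08 and 7.26 CPM at 7ss and 68.8 and 39.1 CPM at 1ss in head mesoderm cells, so its upward difference came with a lower 7ss level in head mesoderm cells.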

How the results depend on the processing

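Leaving out each library but HH11 in turn gave 2759 to 3398 genes against other cells (3450 with all, 3570 without HH11), 1192 to 1674 against head mesoderm cells (1611 with all, 1718 without HH11), 1 to 2595 for 7ss against 1ss (711), 0 to 1661 for 4ss against 1ss (0), 0 to 1663 for 7ss against 4ss (5) and 85 to 410 for the interaction (286). Without the library block 1492 and 350 genes were called against other cells and head mesoderm cells. DESeq2 gave 3337, 1356, 700, 27, 20 and 85 in the order above. Without the low-count filter the 3 stage comparisons gave 1663, 214 and 202, and with at least 4 markers 7ss against 1ss gave 436. The cause of these shifts was not tested.

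The replicate numbers were shared between stages, and replicate 1 deviations correlated at -0.005, 0.123 and 0.102 over 4628 genes. Whether same-numbered samples shared more than the number was not tested. With a replicate block the 3 stage comparisons gave 1261, 16 and 7 genes, beside 711, 0 and 5 without it.

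Shares of cardiac progenitor cells (means of 2 libraries) were 3.98%, 6.54% and 1.99% at 1ss, 4ss and 7ss, and 1.92%, 4.93% and 1.20% after thinning, 2.07%, 3.83% and 1.23% with at least 4 markers and 5.45% and 8.61% with at least 1000 genes at 1ss and 4ss. MSX1 turned to 0.96 in the interaction with 10% free RNA subtracted (-2.23 without).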
